A study of Mus musculus with 4 samples.

Results

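The genes described here are 8 genes of antigen presentation by MHC class II: H2-Aa, H2-Ab1, H2-Eb1, H2-DMa, H2-DMb1, Cd74, Ciita and Ctss. They were listed by name, but with earlier results of these data known, so the choice was not blind to the values. They are 8 of 18195 genes counted on the array: those that its annotation names alone on a probe set, plus H2-DMb1, which it names together with H2-DMb2. Together they have 17 of the 45101 probe sets, a probe set being a group of short probes read as 1 signal, and the 7 genes other than Ctss have 16 of these. RNA was taken from Paneth cells, the granule-filled secretory cells that sit deep in the crypts of the small intestine, by laser capture from frozen sections. One group of 2 arrays came from mice that were born germ-free and then carried the gut flora of a conventionally raised mouse for 10 days (conventionalized). The other group of 2 arrays came from mice kept germ-free until they were killed. All mice were male NMRI animals of 8 weeks, and the comparison asked how colonization of the gut altered expression in Paneth cells. In each group RNA of 3 mice was combined into 1 pool, and each array was a separate amplification of 10 ng of that pool. Duplicate arrays thus measured 1 pool again, every p-value below covers amplification and array error only, and the number of arrays limits the precision.

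MHC class II molecules are surface proteins made of an alpha and a beta chain that show peptides from endosomes to CD4 T cells. Their chains are assembled on the invariant chain Cd74, which is cut down by proteases such as cathepsin S (Ctss), and the H2-DM protein then helps to exchange its last fragment for a peptide. Ciita is the coactivator that switches class II promoters on, through factors that sit on the X and Y boxes of these promoters. Interferon gamma can induce Ciita. Dendritic cells, macrophages and B cells carry class II in most tissues, and the epithelium of the small intestine can also make it when microbes are present. Ctss is typical of myeloid cells, so a side by side reading of Ctss and the class II genes was part of the comparison.

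Promoter windows are shown first, because the shared boxes are what ties the class II genes to Ciita and Ctss is set beside them. RefSeq windows of 300 bases (250 before to 50 after the gene start, build GRCm38.p6) were used for 5 of the 8 members, 6 windows in all. A script searched both strands for the X box core AGNNACNGA and the Y box core CCAAT, which reads ATTGG on the other strand. Matches are in capitals and all sequences run 5' to 3' on the gene's own strand. The windows are those of H2-Eb1 (chr17:34305617-34305916, plus strand), H2-DMb1 (chr17:34152941-34153240, plus strand), H2-Aa (chr17:34287774-34288073, minus strand) and Ctss (chr3:95526536-95526835, plus strand).
H2-Eb1: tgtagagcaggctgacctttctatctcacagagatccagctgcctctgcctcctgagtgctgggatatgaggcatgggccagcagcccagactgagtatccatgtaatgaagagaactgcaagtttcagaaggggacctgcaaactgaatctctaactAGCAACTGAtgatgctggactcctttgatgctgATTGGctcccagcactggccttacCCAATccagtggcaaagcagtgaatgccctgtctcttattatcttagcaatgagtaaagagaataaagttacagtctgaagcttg
H2-DMb1: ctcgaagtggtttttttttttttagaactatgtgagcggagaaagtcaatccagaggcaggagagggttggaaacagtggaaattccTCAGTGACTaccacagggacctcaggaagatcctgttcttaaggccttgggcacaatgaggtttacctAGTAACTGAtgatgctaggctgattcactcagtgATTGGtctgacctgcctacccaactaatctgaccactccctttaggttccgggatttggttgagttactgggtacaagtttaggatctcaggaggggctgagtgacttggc
H2-Aa: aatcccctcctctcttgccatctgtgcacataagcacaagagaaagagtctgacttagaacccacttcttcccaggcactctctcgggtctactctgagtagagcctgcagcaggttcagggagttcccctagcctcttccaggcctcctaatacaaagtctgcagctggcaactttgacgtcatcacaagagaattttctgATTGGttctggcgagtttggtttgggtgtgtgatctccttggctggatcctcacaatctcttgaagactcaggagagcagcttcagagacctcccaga
Ctss: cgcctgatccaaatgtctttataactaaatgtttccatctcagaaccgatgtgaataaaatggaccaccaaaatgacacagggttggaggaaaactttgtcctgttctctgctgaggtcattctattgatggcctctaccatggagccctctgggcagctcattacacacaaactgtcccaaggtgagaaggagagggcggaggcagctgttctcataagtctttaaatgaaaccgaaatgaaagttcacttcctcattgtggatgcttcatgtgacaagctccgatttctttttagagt

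H2-Eb1 and H2-DMb1 shared an arrangement. In H2-Eb1 an X box core began 92 bases before the gene start, and the first base of an inverted Y box core lay 33 bases after its first base. In H2-DMb1 the X box core began 95 bases before the start, and the corresponding distance was 34 bases. H2-Eb1 held a further Y box core at 35 bases before the start, and H2-DMb1 a further X box core on the other strand at 163 bases before it. The window of H2-Aa held an inverted Y box core 48 bases before the start and no X box core. In Ctss neither core was found. Of the 2 windows of H2-DMa, 1 held an inverted Y box core, 198 bases before that start, and neither held an X box core. Over all 32851 windows of this length, 17.7% held the X box core, 37.4% the Y box core and 6.54% both. The gamma-activated site TTCNNNGAA, found in 8.3% of all windows, was in none of the 6. No match says only that these letters are absent from these windows.

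The class II genes read higher in the conventionalized pool, most of them short of the test's threshold, and Ctss did not. Taken at the probe set with the highest mean signal, all 7 class II genes had a log2 difference above 0, from 0.77 for Cd74 to 1.74 for H2-Ab1, with a median of 1.08. Over all 12111 genes tested the median was 0.00, the 75th percentile 0.37 and the 90th percentile 0.73. With no filter on signal the median of all 18192 genes was 0.02 and the 90th percentile 0.85, which 5 of the 7 class II genes exceeded and Cd74 and H2-DMa did not. Ctss differed by -0.25. Values are differences of log2(signal + 32), conventionalized minus germ-free, so the change of dim probe sets is understated. In pooled tissue fewer cells of a type and less RNA per cell cannot be told apart, so a higher class II signal may stand for more expressing cells or for more RNA in each.

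**Figure D1:**
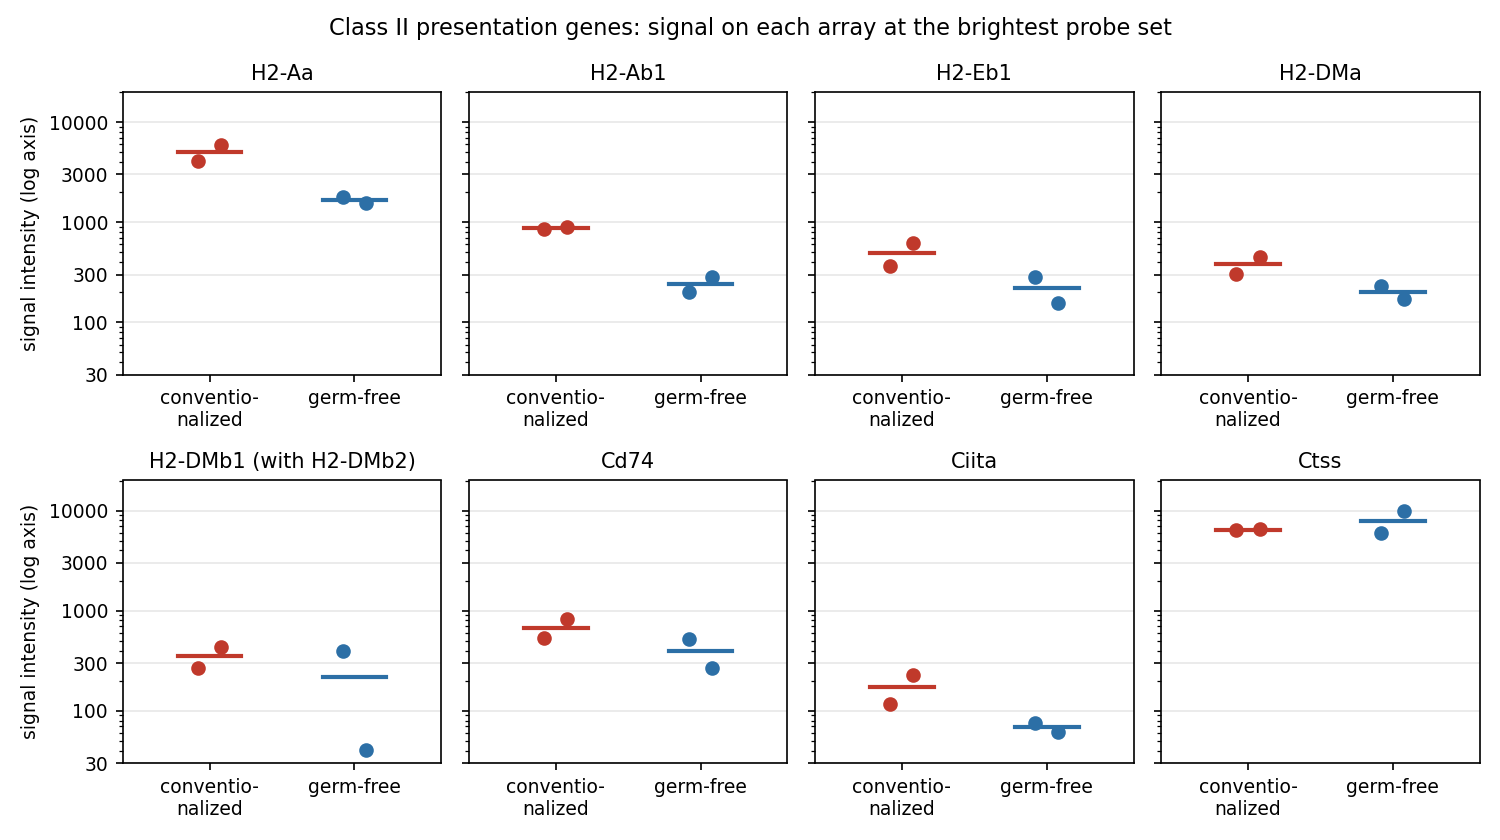
Signal intensity (log axis) of the 8 genes on each array, at the probe set with the highest mean, conventionalized left and germ-free right. Points are arrays and bars the mean of 2. H2-Aa and H2-Ab1 lie clearly apart between the groups, H2-DMb1 (on a probe set that also names H2-DMb2) has germ-free points at 395 and 40, and Ctss lies between 6036 and 9820 throughout.

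Among the antigen-binding chains, H2-Aa encodes the alpha chain of the I-A molecule. Its first probe set, 1435290_x_at, read 4133 and 5907 in conventionalized cells, against 1790 and 1544 in germ-free cells. Both conventionalized arrays stood above both germ-free arrays, and the log2 difference was 1.55 ± 0.44 (SE, n = 2 arrays per group; limma adjusted p = 0.0784). A second probe set, 1438858_x_at, read 1742 and 3027 against 541 and 802, again with no overlap. It rose by 1.75 ± 0.42 on the log2 scale, or 3.37-fold on this scale (limma adjusted p = 0.0124), and was the sole probe set of the 8 genes called at an adjusted p under 0.05. That call was lost without conventionalized replicate 2 (limma adjusted p = 0.561), without germ-free replicate 1 (limma adjusted p = 0.451) and under several other settings of the fit given at the close. The probe set 1452431_s_at read 593 and 707 in conventionalized cells, against 327 and 160 in germ-free cells (1.37 ± 0.49, not called). The last, 1443783_x_at, read 227 and 592 against 132 and 58 (1.72 ± 0.65, not called), and neither overlapped between the groups. All 4 probe sets of H2-Aa thus ran the same way, though they read 1 transcript and are not independent. The endings _x_at and _s_at mark probes that may also bind related transcripts.

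H2-Ab1 encodes the beta chain that pairs with H2-Aa. Its first probe set, 1450648_s_at, read 851 and 904 in conventionalized cells, against 203 and 281 in germ-free cells. The groups did not overlap and duplicates lay close together, at a log2 gap of 0.08 between the conventionalized arrays and 0.41 between the germ-free arrays. The difference of 1.74 ± 0.47 was not called (limma adjusted p = 0.0552), and it passed with a pseudocount of 8 (limma adjusted p = 0.049) and among the brightest 25% of probe sets (limma adjusted p = 0.00699). A further pair of H2-Ab1 probe sets did not pass the signal filter. Of these, 1451721_a_at read 64 and 129 in conventionalized cells, against 19.6 and 6.1 in germ-free cells, and 1425477_x_at read 22 and 46 against 19 and 13. Neither overlapped between the groups.

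H2-Eb1, the beta chain of the I-E molecule, read 367 and 624 in conventionalized cells, against 282 and 155 in germ-free cells. The groups did not overlap, but the gaps between duplicates, 0.72 for conventionalized and 0.75 for germ-free arrays on the log2 scale, came near the difference of 1.08 ± 0.52 (limma adjusted p = 0.916).

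For the peptide exchange genes the groups overlapped at 3 of 4 probe sets. H2-DMa, the alpha chain of H2-DM, read 306 and 454 in conventionalized cells, against 233 and 172 in germ-free cells, a log2 difference of 0.80 ± 0.54 without overlap (limma adjusted p = 0.999). Its second probe set, 1422527_at, overlapped between the groups, with 325 and 159 against 212 and 144, and differed by 0.34 ± 0.63. Both probe sets of H2-DMb1, the beta chain, also name its neighbour H2-DMb2 and stand for a mixture of the pair. The brighter, 1449580_s_at, read 266.5 and 436 in conventionalized cells, against 395 and 40 in germ-free cells, so that 1 germ-free array stood between the conventionalized ones. Its difference of 1.09 ± 0.59 rests on the other germ-free array and was -0.19 without germ-free replicate 2. The dimmer, 1418638_at, read 112 and 170 against 193 and 114, a difference of -0.09 ± 0.80 and the only class II probe set below 0.

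Cd74, the invariant chain, read 532 and 826 in conventionalized cells, against 525 and 266 in germ-free cells. The closest arrays of the 2 groups were almost level, and the difference of 0.77 ± 0.46 was not called (limma adjusted p = 0.999). Ciita, the coactivator, lay close to the signal filter. Its first probe set, 1421210_at, read 116.5 and 228 in conventionalized cells, against 75.5 and 61 in germ-free cells, a difference of 0.97 ± 1.03. A second, 1421211_a_at, read 149 and 254 against 43 and 20 and differed by 1.87 ± 1.28. Neither overlapped between the groups, and both, like H2-Aa 1443783_x_at, passed the filter through their conventionalized values, the germ-free mean being under it. Neither was called (limma adjusted p = 0.999 each), and the remaining probe set, 1447075_at, was under the filter and overlapped, with 9.4 and 20 against 23.5 and 4.6.

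**Figure D2:**
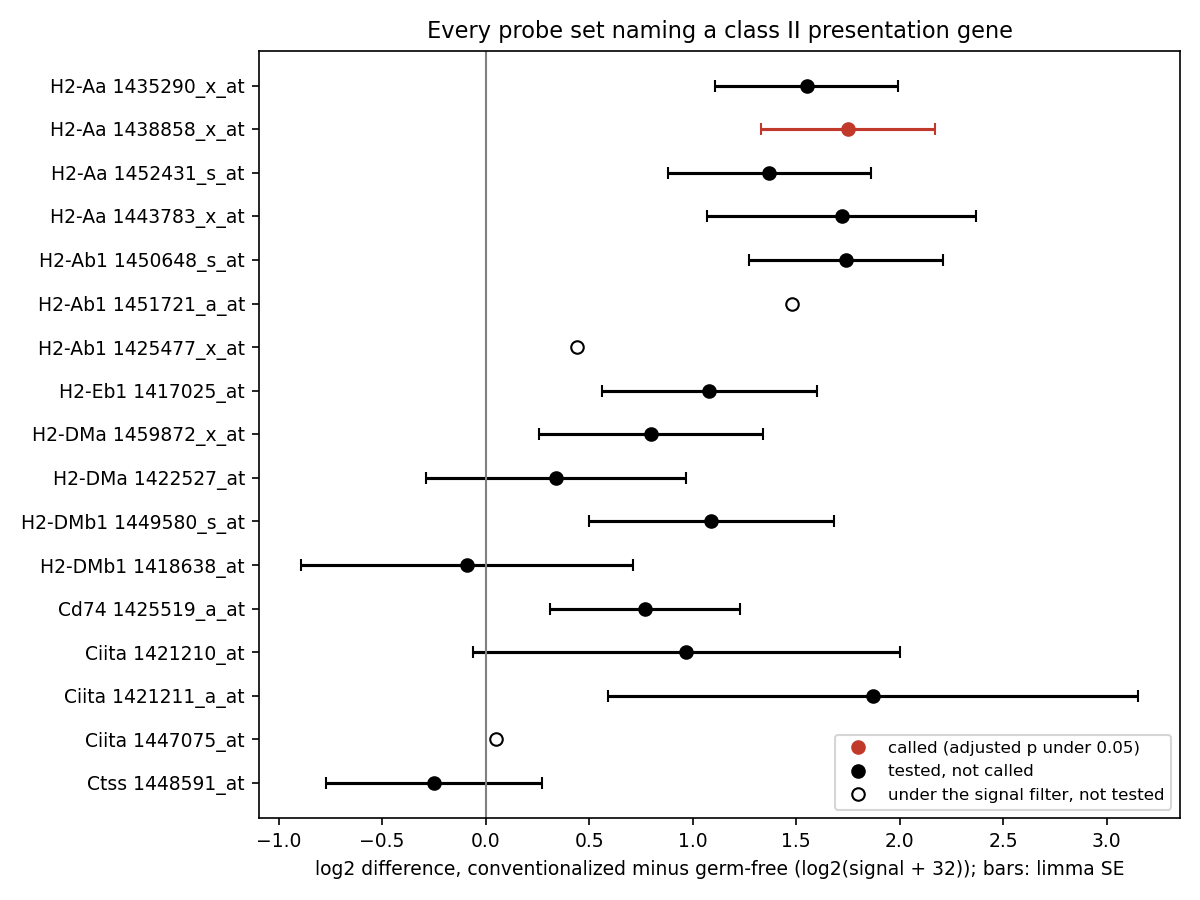
Log2 difference (conventionalized minus germ-free) at each of the 17 probe sets, with limma standard errors for the 14 tested. H2-Aa 1438858_x_at alone is called (red), open circles were under the signal filter, and H2-DMb1 1418638_at and Ctss lie below 0.

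Counted over probe sets, 13 of the 16 class II probe sets passed the signal filter, a mean above 113.9, and 1 of these 13 was called higher by limma at an adjusted p under 0.05, where 0.12% of all 22491 probe sets tested were. The remaining counts take every class II probe set with no filter on signal, because 3 of the 13 (both of Ciita and H2-Aa 1443783_x_at) passed it only through their conventionalized arrays. At an unadjusted limma p under 0.05, 6 of the 16 were higher (4 of H2-Aa, 1 of H2-Ab1 and 1 of H2-Eb1), beside 2.36% of all 45037 probe sets. Both conventionalized arrays stood above both germ-free arrays at 12 of the 16, beside 16.3% of all probe sets. These counts lean on H2-Aa, which supplies 4 probe sets. By gene, 5 of 7 class II genes (H2-Aa, H2-Ab1, H2-Eb1, H2-DMa and Ciita) differed by more than the gap between either pair of duplicates, which 9.74% of all 18192 genes did in that direction. H2-DMb1 and Cd74 did not.

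Within a group the class II genes also ran together. Conventionalized replicate 2 read above replicate 1 for 7 of 7 class II genes, where 50.5% of all genes tested did so. Germ-free replicate 1 read above replicate 2 for 6 of 7, H2-Ab1 being the exception, where 54.3% of all genes did. The 7 genes are therefore not 7 independent readings. Conventionalized replicate 2 also stood apart over all probe sets tested, with Pearson correlations of 0.754 to 0.779 with the other arrays, against 0.855 to 0.890 among those. The class II median was 0.72 without that array. It was 0.70 when germ-free replicate 2 was left out instead. Duplicates differed by a standard deviation of 1.05 (conventionalized) and 0.83 (germ-free) on the log2 scale. The fluidics station, number 2 for the conventionalized pair and number 1 for the germ-free pair, cannot be told apart from colonization.

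Ctss, the protease that trims the invariant chain, overlapped between the groups. It read 6370 and 6549 in conventionalized cells, against 6036 and 9820 in germ-free cells. On each array this signal stood above 98.6% to 99.0% of all probe sets. Which cells it came from was not tested, so Ctss is not a measure of myeloid cells here. Both conventionalized values lay between the germ-free ones. The difference of -0.25 ± 0.52 was not called (limma adjusted p = 0.999). It was -0.60 with germ-free replicate 1 left out and 0.10 with germ-free replicate 2 left out, so its sign rests on germ-free replicate 2.

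Set against Ctss on the same array, each class II gene had a higher mean in conventionalized cells. The log2 signal of H2-Ab1 minus that of Ctss was -2.86 and -2.81 in conventionalized cells, against -4.69 and -4.98 in germ-free cells, a shift of 2.00. For H2-Aa the shift was 1.81, for H2-Eb1 1.33, for H2-DMa 1.06 and for Ciita 1.22. For these genes and H2-Ab1 both conventionalized arrays lay above both germ-free arrays. The share of all genes that do so after this subtraction was not computed, so nothing is read from this separation. Ctss was highest on germ-free replicate 2 (9820), so the subtraction lowers that array most for every gene. Ctss itself differed by -0.25, so the subtraction raises the shift of any gene by that amount. For H2-DMb1 (1.34) and Cd74 (1.02) the groups overlapped. An exact two-sided permutation test over the 4 arrays gave p = 0.33 for the 5 genes without overlap and 0.667 for H2-DMb1 and Cd74. With 3 possible splits 0.33 is the smallest p this test allows, so it could not pass 0.05 whatever the values, and nothing is read from it. The median shift was 1.33, with 0.61 when germ-free replicate 2 was left out and 2.05 when germ-free replicate 1 was. For the mean of the class II genes minus Ctss, the pooled standard deviation between duplicate arrays was 0.73.

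**Figure D3:**
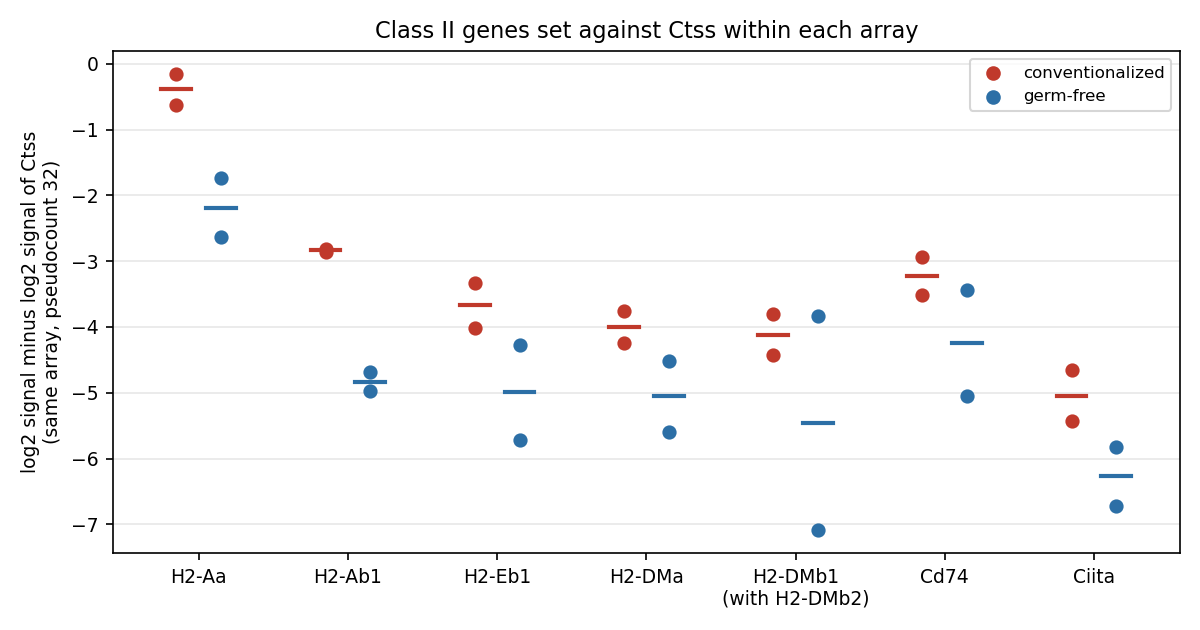
Log2 signal of each class II gene minus that of Ctss on the same array, for conventionalized (red, left) and germ-free (blue, right) arrays, with bars at the mean of 2. The red points lie above the blue ones for all genes but H2-DMb1 and Cd74, where a germ-free point lies above the lower conventionalized one. Heights of different genes are not comparable, since each has its own probes.

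The rest of the class II pathway had a median near that of all genes. Of 31 genes tested in 5 lists, limma called none (0.355% of all genes were called), 2 had an unadjusted p under 0.05 (5.94% of all genes), and the median was 0.02. Further probe sets of these genes, 15 tested, had 8 above 0, and limma called 0 of them (0 at an unadjusted p under 0.05). Other class II molecules had 3 tested genes, with H2-Ea at 1.34 ± 1.10, H2-DMb2 at 0.45 ± 1.07 and H2-Eb2 at 0.20 ± 0.53, and none was called. H2-Ea, the alpha chain of I-E, read 83 and 360 against 60 and 44, without overlap, its conventionalized duplicates lying far apart. Like Ciita, H2-Ea and H2-DMb2 passed the filter through their conventionalized values. H2-Oa and H2-Ob, which restrain H2-DM, were under the filter.

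Endosomal processing genes had 10 tested members with a median of -0.05, 5 above and 5 below 0. Ifi30, a thiol reductase that unfolds antigens, read 1397 and 1485 in conventionalized cells, against 1569 and 2136 in germ-free cells (log2 difference -0.34 ± 0.42). Marchf1, a ubiquitin ligase that removes class II from the surface, differed by -0.38 ± 0.91. The proteases Ctsb and Ctsc differed by 0.01 ± 0.42 and 0.07 ± 0.44, and Ctsl, which trims the invariant chain in thymic epithelium, by 0.47 ± 0.51. Marchf8, a relative of Marchf1, had an unadjusted limma p of 0.0304 at -0.95 ± 0.44 and was not called (limma adjusted p = 0.86). Its values were 686 and 302 against 780 and 1075.

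Of 7 factors that bind class II promoters, 5 were above 0 and none was called, with a median of 0.17. Rfxap, a subunit of the X box factor RFX, read 308 and 506 in conventionalized cells, against 177 and 147 in germ-free cells, without overlap (1.14 ± 0.56; limma adjusted p = 0.943). A second Rfxap probe set, under the filter, overlapped and ran the other way, with 115 and 9.9 against 116.5 and 73 (-0.67). The partner Rfx5 differed by 0.06 ± 0.49, and Rfxank by 0.17 ± 0.65 at its first probe set. Other Rfxank probe sets differed by -0.19 ± 0.83 and, under the filter, by -0.88. Nfyb, a subunit of the Y box factor NF-Y, differed by 0.99 ± 0.54, with 401 and 424 against 379 and 89. Germ-free replicate 1 was thus almost level with the conventionalized arrays. A second Nfyb probe set differed by 0.33 ± 0.93, with overlap. Nfyc differed by -0.25 ± 0.42. Creb1, which also binds the X box region, differed by 0.19 ± 0.46 at its first probe set. Another Creb1 probe set read 22 and 107 in conventionalized cells, against 237 and 268 in germ-free cells, without overlap (-1.71 ± 0.90; limma adjusted p = 0.999), and 1 more differed by 0.30 ± 0.54.

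The interferon gamma axis that leads to Ciita had 7 tested members with a median of -0.19, 3 above and 4 below 0. Ifng itself read between 3.6 and 37 on all arrays, under the filter. Irf1, a transcription factor that acts on the Ciita promoter, read 1545 and 1205 against 692 and 1353 (0.48 ± 0.42). The kinase Jak2 was lower on both conventionalized arrays, with 1399 and 1579 against 1923 and 2370 (-0.51 ± 0.42), and the receptor chains Ifngr1 and Ifngr2 both differed by -0.19 ± 0.43. Irf2 differed by -0.31 ± 0.60 and Prdm1, a repressor of Ciita, by 0.22 ± 0.54. Costimulation genes had 4 tested members with a median of -0.10. Pdcd1lg2, which restrains T cells, differed by 0.97 ± 0.60, Cd40 by -0.25 ± 0.78, Cd274 by -0.22 ± 0.75 and Icosl by 0.02 ± 0.64, and Cd80 and Cd86, the main costimulators of antigen-presenting cells, were under the filter.

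Markers of the cells in the capture were read beside these values. Most Paneth cell genes had strong signals. Lyz1 read 80184 and 249594 in conventionalized cells, against 24112 and 51494 in germ-free cells, and Itln1 read 49311 and 49285 against 8885 and 21031. The defensins Defa31 and Defa39 differed by 2.56 ± 1.01 and 1.82 ± 0.75. All 9 tested were above 0 with a median of 1.96. Reg3g, a lectin that kills bacteria, rose by 4.90 ± 0.50 (limma adjusted p = 2.92e-18) and Mptx1 by 2.74 ± 0.48 (limma adjusted p = 2.51e-05, not called with median centring). No call on these arrays, Reg3g included, held without the variance trend or when 4 prior degrees of freedom were imposed. The list's summed signal was 308735 and 685546 in conventionalized cells, against 66975 and 149105 in germ-free cells. Lyz1 and Defa31 (57727 and 245509 against 10553 and 38475) supplied a large part of that sum. Absorptive enterocyte genes were also bright, such as Fabp2 at 51528 and 142558 against 20981 and 45252, and 12 of their 14 tested members lay below 0, with a median of -0.53. Apoa1 differed by -0.52 ± 0.78 and Vil1 by -0.21 ± 0.54, and the 2 above 0 were Fabp2 and Apoa4 (0.59 ± 0.81). Their summed signal was 116067 and 266204 in conventionalized cells, against 102021 and 185668 in germ-free cells, and without Fabp2 it was 64539 and 123646 against 81040 and 140416. Apoc3 was called lower (-2.16 ± 0.47; limma adjusted p = 0.00332). That call was lost with quantile normalization (limma adjusted p = 0.0517), median centring (limma adjusted p = 0.708) and the replicate block (limma adjusted p = 0.076). It was also lost without conventionalized replicate 1 (difference -1.40) or germ-free replicate 2 (difference -1.82). No Paneth or enterocyte marker was at 0, and their part in the class II signal was not tested.

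Macrophage and dendritic cell markers had a median of -0.07. Of 14 tested members limma called none, 7 were above and 7 below 0. The leukocyte gene Ptprc read 262 and 216 in conventionalized cells, against 327 and 283 in germ-free cells. The macrophage gene Csf1r read 2719 and 1772 against 1933 and 1727, and C1qb read 417 and 300 against 444 and 473. Cd14 ran opposite to Ptprc and C1qb, with 633 and 294 against 200 and 280, without overlap (0.79 ± 0.52). Of markers under the filter, Cd68 was higher on both conventionalized arrays (0.89) and Cd209a lower on both (-1.82). The dendritic cell genes Flt3, Xcr1, Cd209a and Itgax were all under the filter. Laptm5 differed widely between duplicates, with 3043 and 324 against 1337 and 170 (0.99 ± 0.43; limma adjusted p = 0.801). Lyz2, the macrophage lysozyme and a near copy of Lyz1, so that their probes may share transcripts, read 15930 and 14914 against 5627 and 6963 (1.30 ± 0.57; limma adjusted p = 0.811). The summed signal of the 24 markers with a probe set was 25241 and 20047 in conventionalized cells, against 12557 and 11987 in germ-free cells, and without Lyz2 it was 9310 and 5133 against 6930 and 5024. No marker was at 0 on any array, and 3 were under 113.9 on all 4. Their part in the class II signal was not tested.

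B and plasma cell markers held a called gene. Igha, the constant region of immunoglobulin A made by plasma cells, rose by 2.44 ± 0.44 (limma adjusted p = 5.55e-05), with 6273 and 7988 in conventionalized cells, against 994 and 1644 in germ-free cells, and was not called with median centring. Jchain, which joins immunoglobulin A molecules, read 971 and 984 against 619 and 402 (0.93 ± 0.44; limma adjusted p = 0.885). Ighm differed by 0.45 ± 0.48 and Mzb1 by 0.13 ± 0.59. Genes of B cells that carry class II lay on both sides of 0. Ms4a1 read 154 and 9.2 in conventionalized cells, against 300 and 175 in germ-free cells (-1.58 ± 0.94), and Cd22 read 80 and 179 against 197 and 173 (-0.49 ± 0.77). Cd79b, Cd79a and Pax5 were under the filter and ran the other way. Cd79b read 134 and 228 against 10.3 and 82.5, without overlap, a log2 difference of 1.58. Cd79a read 72 and 159 against 130 and 9.9 (0.78) and Pax5 read 154.5 and 41.5 against 67 and 28 (0.60), both with overlap. The list's summed signal was 8720 and 10389 in conventionalized cells, against 3236 and 3104 in germ-free cells. Without Igha it was 2447 and 2401 in conventionalized cells, against 2242 and 1460 in germ-free cells. Of 6 tested members 4 were above and 2 below 0 and 5 were not called, the list median was 0.29, and of the 12 with a probe set none was at 0 and 2 were under 113.9 on all arrays. The part that such cells had in the class II signal was not tested.

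T and innate lymphoid markers had 6 tested members, none called, with a median of 0.21. Gzma, a cytotoxic protease of intraepithelial lymphocytes, read 423 and 766 against 244 and 172 (1.34 ± 0.51; limma adjusted p = 0.493), and Cd8a differed by 1.01 ± 0.54, Cd4 by 0.12 ± 0.82 and Gzmb by -0.44 ± 0.87. Of the 13 with a probe set, 4 were under 113.9 on all arrays and none was at 0. The list's summed signal was 1640 and 2437 in conventionalized cells, against 1604 and 943 in germ-free cells. Stromal markers had 11 tested members, none called, with a median of -0.32 and summed signals of 4846 and 5529 against 7936 and 7111. Acta2, of smooth muscle, differed by -0.91 ± 0.42 (limma adjusted p = 0.859), Col3a1 by -0.55 ± 0.42, Col1a2 by -0.46 ± 0.42 and Col1a1 by 0.06 ± 0.47. Neither list's part in the class II signal was tested.

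**Figure D4:**
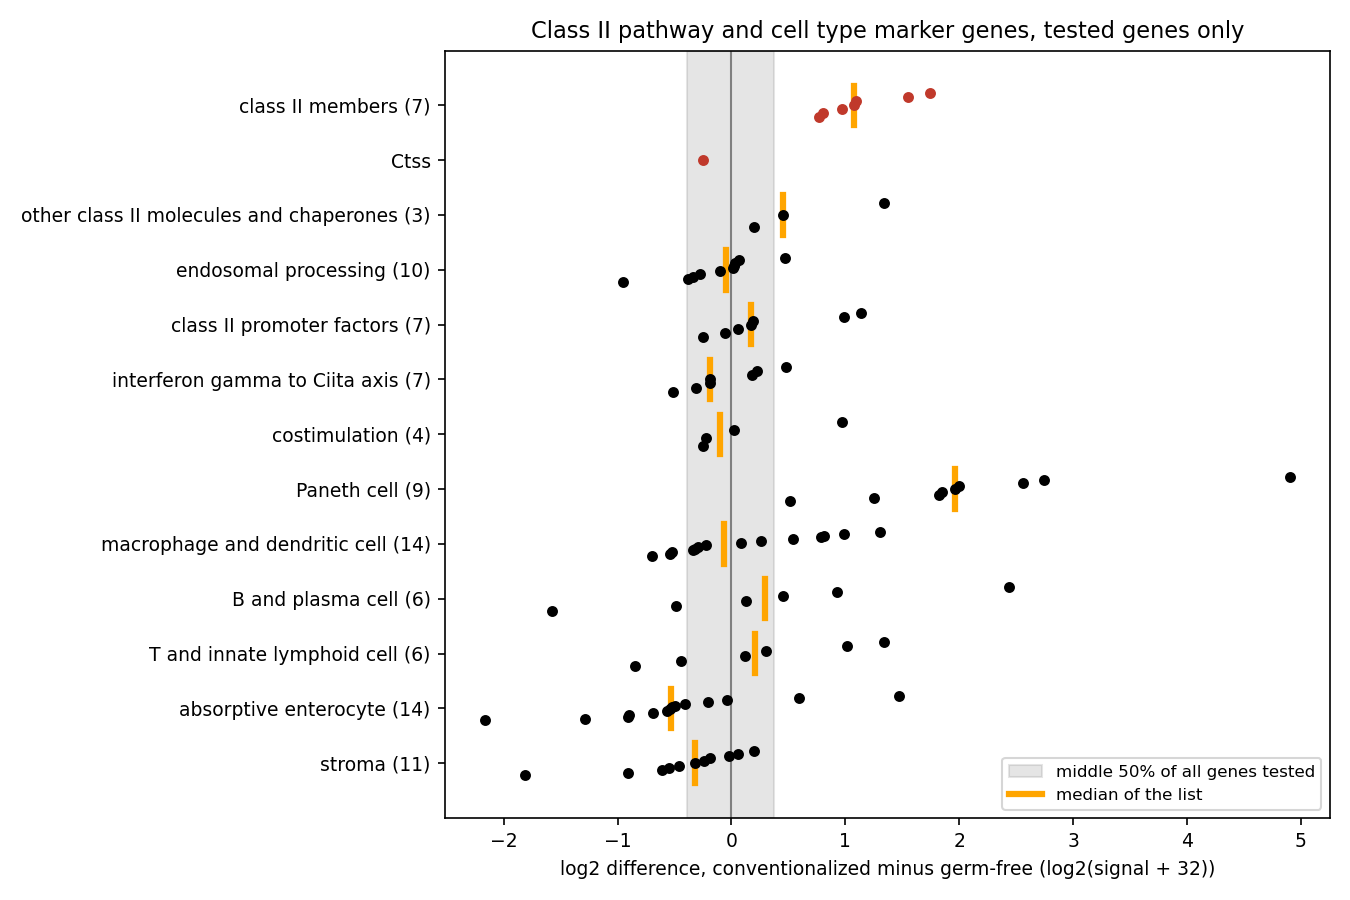
Log2 difference of each tested gene (conventionalized minus germ-free) by list, at its brightest probe set, with the list median (orange) and the middle 50% of all genes tested (grey). The 7 class II genes lie between 0.77 and 1.74 and Ctss at -0.25, while the medians of the pathway and leukocyte lists lie between -0.19 and 0.45.

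The class II median stayed above 0 under every setting that could move it. The fits with no filter, no variance trend, the fixed prior or the replicate block leave each difference unchanged. Their median of 1.08 was fixed in advance and is no check. The class II median was lowest with the largest pseudocount (0.67) and highest without germ-free replicate 1 (1.45). With quantile normalization it was 1.07 and with median centring 0.97, where the median of all genes moved to -0.03 and -0.10.

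**Figure D5:**
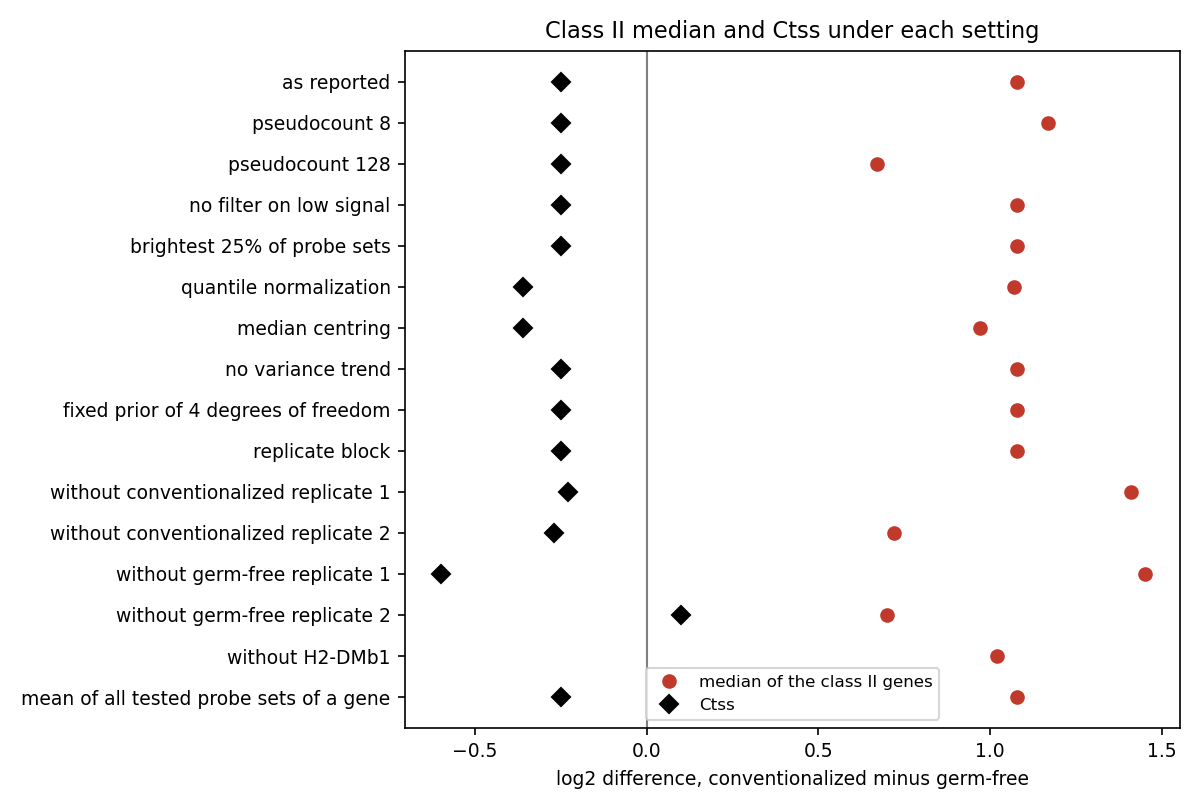
Median log2 difference of the class II genes (red circles) and log2 difference of Ctss (black diamonds) under each processing setting. The class II median stays between 0.67 and 1.45, and Ctss between -0.60 and 0.10. The settings with no filter, no variance trend, the fixed prior or the replicate block cannot move either value. Ctss has no separate value in the setting without H2-DMb1.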

How the data were processed

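Per the labels' protocols, laser-captured RNA of 3 mice per group was pooled, and 10 ng aliquots were amplified (Arcturus RiboAmp HS), labelled with biotin and hybridized to Affymetrix mouse arrays. The authors deposited linear signal intensities, 1 for each probe set on each array, made with software not given in the sources used here. With 2% cut off at both ends, the mean was 250.0 on every array, and no further scaling was applied. Detection calls were not used here. Gene names came from the platform annotation, and of 34958 probe sets naming 1 gene, 34754 matched a GRCm38.p6 gene table.

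Probe sets with a mean signal above the median of 113.9 entered the test (22491, with 64 controls left out). Conventionalized and germ-free arrays were compared on log2(signal + 32) with limma 3.58.1 in R 4.3.3 (lmFit, eBayes with variance trend, Benjamini-Hochberg over all probe sets tested), and called at an adjusted p under 0.05. The prior degrees of freedom were infinite, so each SE follows from the trend at that signal and not from the probe set's own spread. The fit was also run on simulated data whose spread followed the signal alone, so that run cannot test this assumption. The rule for naming genes took all 8 members at all their probe sets; of each pathway list those called, the 4 with the largest difference and the 2 with the highest signal; of each marker list those called and the 4 with the highest signal; and Rfx5, Irf1, Ifi30 and Igha, with 1 further gene not reported here. The other probe sets named for Creb1, Rfxap, Rfxank and Nfyb were chosen after their values were seen. So were Rfxank, Ifngr1, Ifngr2, Ptprc, Cd14, Cd22, Ms4a1 and the untested genes named. Members and lists were chosen with earlier results of these data known. Same-numbered arrays did not deviate together (correlation of deviations -0.132), and the labels give the numbers no meaning. Alternatives were other pseudocounts, filters, scalings and variance models, a replicate block, probe set averages and leaving out each array.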

Additional observations from a re-analysis of the deposited data

How the results depend on the processing

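Over the whole array limma called 75 probe sets (27 higher, 48 lower). After quantile normalization the count was 34 and after median centring 22 (3 higher, 19 lower). It was 0 in the fit with no variance trend (975 at an unadjusted p under 0.05) and 0 when the prior was fixed at 4 degrees of freedom (464 at an unadjusted p under 0.05). It ran from 41 to 213 with 1 array left out, the highest without conventionalized replicate 1. Of the class II and Ctss probe sets, where 1 was called, limma called 2 with a pseudocount of 8 and among the brightest 25% of probe sets, and 0 with quantile normalization, median centring, no variance trend or the fixed prior (6, 4, 6 and 5 of 14 at an unadjusted p under 0.05, in that order). It called 0 to 1 with 1 array left out, 0 without conventionalized replicate 2 or germ-free replicate 1. With median centring the difference of H2-Aa 1438858_x_at was 1.65 in place of 1.75, and its SE was 0.66 in place of 0.42. The cause of this and of the other lost calls was not tested. With the replicate block limma called 30 probe sets in all and 0 of the 14 (5 at an unadjusted p under 0.05). The labels do not pair the numbers. With crossed numbers, an alternative chosen after seeing the data, 228 and 3 were called. Limma called 0 class II pathway genes in each of these fits, with 0 to 5 at an unadjusted p under 0.05. The class II median and its distance from Ctss kept their sign in every setting that could move them. Without H2-DMb1, also chosen after seeing the data, they were 1.02 and 1.28. With 1 array left out, Ctss ran from -0.60 to 0.10, H2-DMa 1422527_at from -0.12 to 0.79, H2-DMb1 1449580_s_at from -0.19 to 2.37 and H2-DMb1 1418638_at from -0.40 to 0.23. In those fits the lone array was assumed to vary like the others. With 2 amplifications of 1 pool per group, differences between mice cannot be had, and dim genes such as Ciita carry SEs above 1 on the log2 scale.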
